A study of Mus musculus with 11 samples.

Results

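Transcript levels of 10 genes of the canonical Wnt pathway were compared in mouse embryonic stem cells (ESCs), of 23284 genes listed for each library. The genes were taken by symbol and were present in all 11 libraries. They comprise 4 effectors (Ctnnb1, Tcf7, Lef1 and Tcf7l1), 4 feedback regulators (Axin2, Nkd1, Rnf43 and Dkk1) and 2 target transcription factors (Sp5 and Cdx1). The libraries fell into 5 groups. Wild type (WT) ESCs and ESCs in which Tet1, Tet2 and Tet3, which encode dioxygenases that oxidise 5-methylcytosine, were all knocked out (TKO) were collected untreated (0 h) or once they had been kept for 4 h with α-amanitin at 10 µg/ml, which blocks RNA polymerase II. Each of these 4 groups had 2 libraries of ribodepleted total RNA. The fifth group consisted of 3 WT libraries prepared from polyadenylated (polyA) RNA, with no α-amanitin treatment named. All cells were grown on gelatin with serum and leukemia inhibitory factor, in a medium whose listed components include no Wnt agonist. The number of TKO clones and the parental line of each genotype are not given in the sources used here, so a difference between lines and an effect of the knockout cannot be told apart. The study describes its α-amanitin RNA-Seq of WT and TKO cells as done in biological duplicate. Nothing in the labels says that replicates came from separate cultures. The p-values thus measure the spread between these libraries, and how much of it is technical is not known.

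Canonical Wnt signalling acts through β-catenin. In the absence of a Wnt ligand, a destruction complex built on Axin proteins marks β-catenin for degradation. When a ligand binds Frizzled and LRP receptors, β-catenin accumulates, enters the nucleus and binds TCF/LEF factors at target genes. Several of these targets, among them Axin2, Nkd1, Rnf43 and Dkk1, dampen the pathway in turn. In mouse ESCs, Tcf7l1 (also called TCF3) acts mainly as a repressor of pluripotency genes, a repression that β-catenin relieves.

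Levels are given as scaled TPM, that is, the TPM value (a length-corrected share of a library's transcripts) divided by a size factor of that library. The limma test covered every gene whose scaled TPM averaged more than 1 and was run on log2(scaled TPM + 1), which understates the change of low genes. A gene passed at a Benjamini-Hochberg adjusted p under 0.05 over all tested genes, and was called when its change also exceeded 1.5-fold on that scale. Recovered read totals ranged from 25507874 to 29781366 in the ribodepleted libraries and from 72639837 to 82129168 in the polyA libraries. Tet1 averaged 133 scaled TPM in WT and 30.1 in TKO cells at 0 h, and Tet2 averaged 51.8 and 7.45. Tet3 averaged 1.45 in both, and a sum over the whole gene does not show whether a deleted part is missing. The ESC markers Pou5f1, Sox2, Utf1, Zfp42, Dppa5a and Tdgf1 summed to between 4211 and 4422 deposited TPM in every ribodepleted library. At 0 h 4 of the 6 were lower in TKO cells and 2 were higher by the same test, and Zfp42 averaged 490 scaled TPM in WT and 115 in TKO cells.

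The 10 genes spanned more than 3 orders of magnitude in untreated WT cells, compared per transcript length as scaled TPM. Ctnnb1, which encodes β-catenin, led with a mean of 528. Tcf7 followed at 11.6, then Tcf7l1 at 5.10 and Axin2 at 4.64, whose libraries overlapped. Cdx1 stood at 3.02, Sp5 at 1.69 and Lef1 at 0.934. Nkd1 (0.413), Dkk1 (0.327) and Rnf43 (0.194) were lowest. In untreated TKO cells the order of the upper 4 was Ctnnb1, Tcf7, Tcf7l1 and Axin2, and none of these neighbours overlapped. Cdx1 had moved from the fifth to the eighth place, where its libraries overlapped those of Nkd1. Nkd1, Dkk1 and Rnf43 stayed below the filter in both fits and were described but not tested, which left 7 of the 10 genes.

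**Figure D1:**
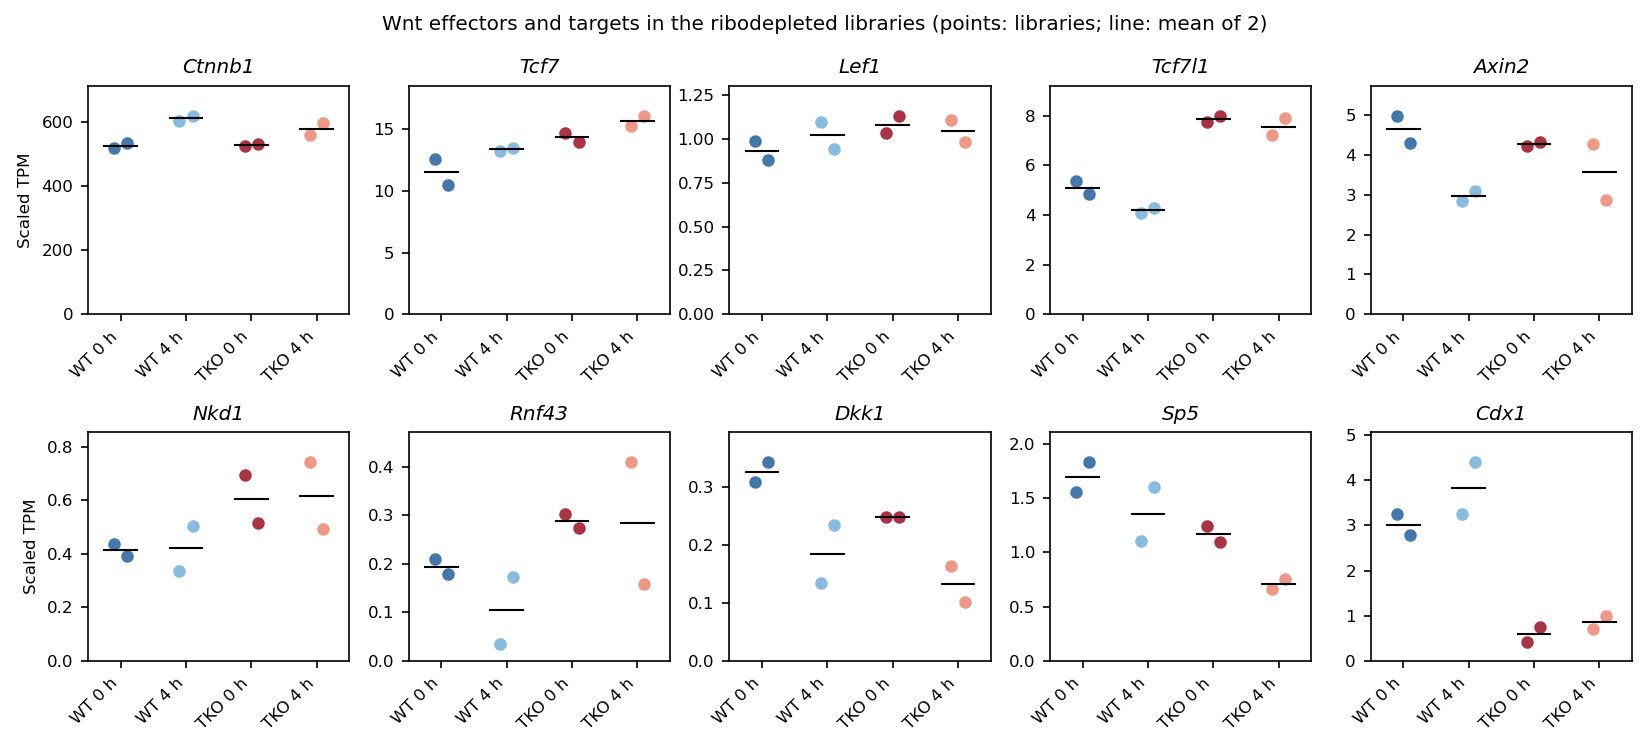
Scaled TPM of each of the 10 Wnt genes (y axis, linear and starting at 0, with a scale of its own in each panel) in the 4 ribodepleted groups (x axis), with 1 point per library and a line at the mean of 2. Cdx1 lies between 2.79 and 4.40 in the WT libraries and between 0.424 and 0.993 in the TKO libraries, and Tcf7l1 lies between 4.10 and 5.35 in WT and between 7.23 and 7.996 in TKO.

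Untreated TKO cells held less Cdx1 mRNA and more Tcf7l1 and Tcf7 mRNA than untreated WT cells. Of the 7 tested genes, 3 passed, against 56.1% of all 12467 tested genes, and 1 was called, against 15.9%. The median log2 change of the 7 was 0.01, and that of all tested genes was -0.02. After 4 h in α-amanitin Cdx1 was again lower and Tcf7l1 again higher in TKO cells, and Sp5 was lower. There 3 of the 7 passed, against 59.4% of all tested genes, and 2 were called, against 16.8%. The share of these genes that passed was 42.9% at both times, and 7 genes are too few to tell it from that of all tested genes.

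Cdx1, a caudal-type homeobox factor and Wnt target of the early embryo, showed the largest genotype difference of the 7 tested genes. It measured 3.25 and 2.79 scaled TPM in the WT libraries at 0 h and 0.424 and 0.755 in the TKO libraries. At 4 h it measured 3.26 and 4.40 in WT and 0.713 and 0.993 in TKO cells. Every TKO library thus lay below every WT library. The TKO mean was 19.5% of the WT mean in untreated cells (log2 change -1.34, SE 0.157, adjusted p = 0.000136). In treated cells it was 22.3% (-1.38, SE 0.157, adjusted p = 0.000106). These levels rested on 12 to 23 recovered reads in the TKO libraries and on 70 to 103 in the ribodepleted WT libraries. Cdx1 averaged 0.590 at 0 h and 0.853 at 4 h in TKO cells, both under the filter value of 1, and was tested because of its level in WT cells. In these bulk libraries, fewer cells that express the gene and less RNA per cell cannot be told apart. Of 6 primitive streak and mesendoderm markers (T, Mixl1, Eomes, Gsc, Evx1 and Mesp1), 2 reached the filter. Neither passed at 0 h, and at 4 h 1 passed as higher and 1, T, as lower in TKO cells. T, itself a Wnt target, averaged 2.03 scaled TPM in WT and 0.983 in TKO cells at 4 h (log2 change -0.61, adjusted p = 0.00319). That TKO mean lay under the filter value of 1. The other tested marker, which is not given with values here, went the opposite way. The 6 markers summed to 5.35 to 5.50 deposited TPM in the WT and 5.51 to 6.84 in the TKO libraries at 0 h, and to 4.10 to 4.89 and 5.20 to 6.20 at 4 h, with none of the 6 at 0 throughout a group, and their part in the Cdx1 difference was not tested.

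Among the effectors, Tcf7l1, the TCF that mainly represses, rose in TKO cells. It measured 5.35 and 4.84 scaled TPM in WT and 7.76 and 7.996 in TKO cells at 0 h. At 4 h the values were 4.10 and 4.30 in WT and 7.23 and 7.90 in TKO cells. No WT library reached a TKO library. The TKO mean was 1.55 times that of WT in untreated cells (log2 change 0.54, SE 0.0798, adjusted p = 0.000504), which fell short of the 1.5-fold limit on the log2(scaled TPM + 1) scale. In treated cells it was 1.80 times (0.72, SE 0.0798, adjusted p = 9.2e-05), which exceeded the limit, but not after quantile normalisation (0.58, adjusted p = 0.000464) or with pseudocount 5 (0.45, adjusted p = 8.48e-05). The 2 genotype differences were not shown to differ from each other (interaction 0.18, adjusted p = 0.689). The gene lies at chr6:72576372-72739248 on the minus strand of NCBIM37 (mm9), and 2 annotated transcripts on the opposite strand, Gm15401 and Gm15402, overlap it.

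Tcf7, which encodes TCF1, a TCF that mainly activates with β-catenin, differed less. Its levels were 12.6 and 10.5 scaled TPM in WT and 14.7 and 14.0 in TKO cells at 0 h (log2 change 0.30, SE 0.0825, adjusted p = 0.0144). They were 13.3 and 13.5 in WT and 15.3 and 16.1 in TKO cells at 4 h, where the change of 0.21 missed the threshold (adjusted p = 0.0501) but passed under 6 of 17 alternatives. The libraries of the genotypes did not overlap at either time, but the pass at 0 h was lost without WT_0h replicate 2 (0.17, adjusted p = 0.104) or TKO_0h replicate 1 (0.26, adjusted p = 0.0884). Tcf7 (chr11:52065873-52096681, minus strand, NCBIM37) is overlapped by A630014C17Rik on the opposite strand and by Gm16953 on its own, so its counts may include other transcripts.

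Ctnnb1 and Lef1 did not pass between genotypes. Ctnnb1 measured 520 and 535 scaled TPM in WT and 528 and 533 in TKO cells at 0 h, a log2 change of 0.01 with a 95% interval from -0.11 to 0.12. With 27205 to 30883 reads per ribodepleted library it was the most precisely counted of the 10. At 4 h its change was -0.08 (interval -0.20 to 0.03), and this sign turned with the scaling, since the deposited TPM gave 0.08 and quantile normalisation 0.04. Lef1, the fourth TCF/LEF factor, rested on only 31 to 41 reads per ribodepleted library. Its levels of 0.881 to 0.987 in WT and 1.03 to 1.13 in TKO cells at 0 h gave a log2 change of 0.11 (interval -0.14 to 0.35, adjusted p = 0.424). Quantile normalisation turned this to -0.04. Ctnnb1 occupies chr9:120838334-120869625 on the plus strand and Lef1 chr3:130813389-130927274 on the plus strand of NCBIM37. On the opposite strand, 4930593C16Rik and Ulk4 overlap Ctnnb1, so its counts may include other transcripts.

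The feedback regulators showed no genotype difference that passed. Axin2, the Wnt-induced scaffold of the destruction complex and the usual readout of the pathway, measured 4.98 and 4.29 scaled TPM in WT and 4.23 and 4.33 in TKO cells at 0 h. The log2 change was -0.09 with an interval from -0.41 to 0.22 (adjusted p = 0.597). At 4 h the WT libraries gave 2.84 and 3.09, and the TKO libraries gave 4.26 and 2.88, so that 1 TKO library lay above the WT libraries and the other between them. The change of 0.19 (adjusted p = 0.270) became -0.03 without TKO_4h replicate 1 and 0.41 (adjusted p = 0.0149) without TKO_4h replicate 2. These were also the replicates that differed most among the ribodepleted pairs over all genes, with a chi-square of 7.83 per degree of freedom against 1.56 to 4.53 in the other pairs. Axin2 lies at chr11:108781663-108812097 on the plus strand of NCBIM37, and Gm11670 overlaps it on the other strand.

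The other 3 feedback genes were close to the limit of detection. Nkd1, which binds Dishevelled and restrains the pathway, had 25 and 28 reads in WT and 50 and 33 in TKO cells at 0 h, or 0.435 and 0.391 against 0.694 and 0.515 scaled TPM. Rnf43, a membrane ubiquitin ligase that removes Frizzled receptors, had 13 and 11 reads in WT and 21 and 17 in TKO cells. Dkk1, a secreted antagonist that blocks LRP receptors, had 10 and 11 reads in WT and 9 and 8 in TKO cells. The TKO libraries lay above the WT libraries for Nkd1 and Rnf43 and below them for Dkk1. When the filter was lifted, none of these 3 differences passed (adjusted p = 0.210, 0.443 and 0.249, respectively), so no difference was detectable at this depth.

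Sp5, a zinc finger factor induced directly by β-catenin, fell in TKO cells at 4 h and missed the threshold at 0 h. At 0 h it measured 1.55 and 1.83 scaled TPM in WT and 1.24 and 1.10 in TKO cells (log2 change -0.31, SE 0.130, adjusted p = 0.0698). At 4 h it measured 1.11 and 1.60 in WT and 0.665 and 0.757 in TKO cells (-0.45, SE 0.130, adjusted p = 0.0150). The TKO mean at 4 h, 0.711, lay under the filter value of 1, and Sp5 was tested because of its level in the other groups. The TKO libraries lay below the WT libraries at both times, with 19 to 42 reads each, and the differences at the 2 times were not shown to differ (interaction -0.14, adjusted p = 0.823). The pass at 4 h was lost without WT_4h replicate 2 (-0.31, adjusted p = 0.106) or TKO_4h replicate 1 (-0.41, adjusted p = 0.0658).

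**Figure D2:**
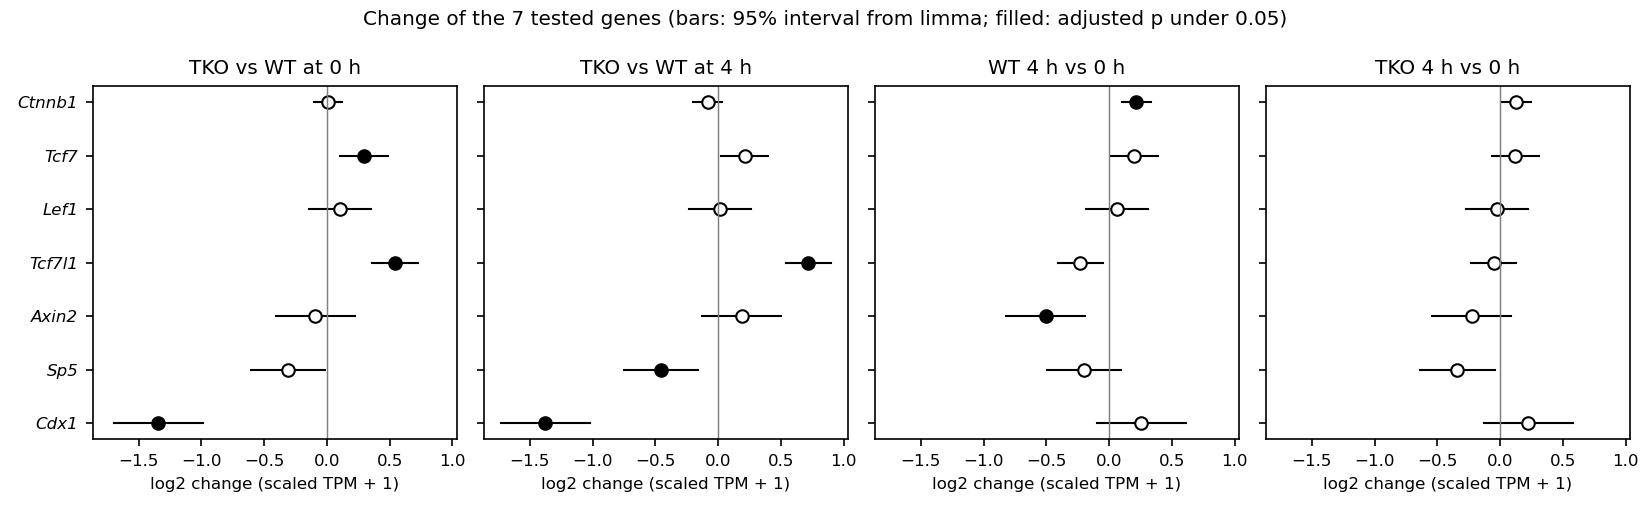
Log2 change on the scaled TPM + 1 scale (x axis) of the 7 tested genes (y axis) in 4 comparisons, with bars for the 95% interval from limma and filled symbols for an adjusted p under 0.05. In both genotype comparisons Cdx1 stands at the left, at -1.34 and -1.38, and Tcf7l1 at the right, at 0.54 and 0.72, and no symbol is filled for TKO 4 h against 0 h.

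The sequences before the start sites were searched for the TCF/LEF core CTTTGAT and its variant CTTTGTT on both strands, within 250 bases upstream in RefSeq's GRCm38.p6 annotation. Either word occurred before 8.06% of 32851 start sites (CTTTGAT 3.21%, CTTTGTT 5.03%). Of 9 genes of the set read, with 15 start sites, Sp5 and Dkk1 held a match. Both are shown because they are direct Wnt targets with a match near the start, and capitals mark the matches. Sp5 held the variant, read on the minus strand as AACAAAG, 222 to 216 bases before its start and the core 104 to 98 bases before it (chr2:70474673-70474922, plus strand). Dkk1 held the variant 98 to 92 bases before its start (chr19:30549497-30549746, minus strand). A match is a description of the sequence and not a site shown to be bound, and no match in this window, as for Axin2, concerns these letters alone.
Sp5: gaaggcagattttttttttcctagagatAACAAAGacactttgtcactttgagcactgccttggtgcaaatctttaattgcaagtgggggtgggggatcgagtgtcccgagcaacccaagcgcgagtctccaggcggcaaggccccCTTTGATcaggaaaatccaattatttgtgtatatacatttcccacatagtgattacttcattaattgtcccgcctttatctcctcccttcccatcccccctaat
Dkk1: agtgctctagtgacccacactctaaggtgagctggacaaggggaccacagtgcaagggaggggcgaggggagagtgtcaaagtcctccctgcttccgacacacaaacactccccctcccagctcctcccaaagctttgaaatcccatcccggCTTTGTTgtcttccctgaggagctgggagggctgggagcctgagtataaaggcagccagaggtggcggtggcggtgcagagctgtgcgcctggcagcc

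The change in transcript levels over 4 h of transcription inhibition was examined next. In WT cells Axin2 fell and Ctnnb1 rose relative to the other transcripts, and the remaining 5 tested genes did not pass. Thus 2 of 7 passed, against 37.7% of all tested genes, and 0 were called, against 2.10%. Of the 7, 4 had an unadjusted p under 0.05, against 6114 of all 12467 tested genes. Limma voom called 1 of the 7, against 418 of the 12467. TPM is a share of each library, so a loss common to all transcripts cannot be seen in it and no half-life was computed. The deposited TPM without scaling moved the median of all tested genes by -0.14 in this comparison, and the changes here are given relative to the scaled median of 0.03.

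Axin2 measured 4.98 and 4.29 scaled TPM at 0 h and 2.84 and 3.09 at 4 h in WT cells, which left 63.9% of the initial mean. The groups did not overlap, and the log2 change was -0.51 (SE 0.139, adjusted p = 0.0228). The direction held under all 16 alternatives, and the pass was lost under 5 of them, among them leaving out WT_0h replicate 1 (-0.42, adjusted p = 0.125), WT_4h replicate 1 (-0.45, adjusted p = 0.119) or WT_4h replicate 2 (-0.55, adjusted p = 0.0617). Ctnnb1 increased from 520 and 535 to 606 and 621, a log2 change of 0.22 (SE 0.05, adjusted p = 0.0131). Its size depended on the scaling, with 0.06 from the deposited TPM (adjusted p = 0.297) and 0.06 after quantile normalisation (adjusted p = 0.247), and it also lost its pass without WT_0h replicate 1 or either WT_4h replicate (adjusted p = 0.0608 to 0.0785). Tcf7l1 had a log2 change of -0.23 that missed the threshold (adjusted p = 0.0507), and passed under 6 of 17 alternatives, among them the deposited TPM (-0.36, adjusted p = 0.0222). The changes of Tcf7 (0.20, adjusted p = 0.0828), Sp5 (-0.20, adjusted p = 0.256), Cdx1 (0.26, adjusted p = 0.222) and Lef1 (0.06, adjusted p = 0.668) did not pass.

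In TKO cells none of the 7 genes passed by limma, on scaled TPM or by limma voom on recovered reads, and 2 had an unadjusted p under 0.05. Of all tested genes 0.265% passed and 0.160% were called, and 3113 of 12467 had an unadjusted p under 0.05. By limma voom 738 of the 12467 passed. The value of Axin2 was -0.23 (interval -0.54 to 0.09, adjusted p = 0.328), with 4.23 and 4.33 in the untreated and 4.26 and 2.88 in the treated libraries. It was -0.44 (adjusted p = 0.0315) without TKO_4h replicate 1. Sp5 was lower in both treated libraries, at 0.665 and 0.757 against 1.24 and 1.10 (-0.34, adjusted p = 0.165). Ctnnb1 was 562 and 598 against 528 and 533 (0.13, unadjusted p = 0.0317, not passing after adjustment). The interaction of genotype and time, which tests whether the 2 genotypes changed differently, passed for none of the 7 genes, and none had an unadjusted p under 0.05. Over all tested genes 0% passed by limma (smallest adjusted p = 0.530), with 940 genes at an unadjusted p under 0.05, and limma voom also passed 0. The interaction of Axin2 was 0.28 (interval -0.17 to 0.73, adjusted p = 0.697), so a different decline in WT and TKO cells was not shown.

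The mRNAs of the TCF/LEF factors together were more abundant in the TKO libraries. The deposited TPM of Tcf7, Tcf7l1, Tcf7l2 and Lef1 summed to 21.2 and 18.0 in WT and 29.2 and 29.7 in TKO cells at 0 h, and to 17.5 and 18.4 against 27.9 and 27.7 at 4 h. All TKO libraries lay above all ribodepleted WT libraries. Tcf7l1 stood at 0.425 and 0.460 of the Tcf7 level in WT and at 0.527 and 0.572 in TKO cells at 0 h. At 4 h these ratios were 0.309 and 0.318 in WT and 0.473 and 0.490 in TKO cells. Tcf7l2, the family member outside the 10 genes, rose from 1.64 and 1.92 scaled TPM in WT to 3.59 and 4.25 in TKO cells without treatment (log2 change 0.82, SE 0.103, adjusted p = 0.00021). Its share of the family sum averaged 9.27% in these WT and 14.4% in these TKO libraries. The sums and shares are descriptions without a test. The sums were not scaled. Deposited TPM without scaling moved the median TKO minus WT change of all tested genes by 0.09 at 0 h and 0.14 at 4 h, which widens the difference between the sums.

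**Figure D3:**
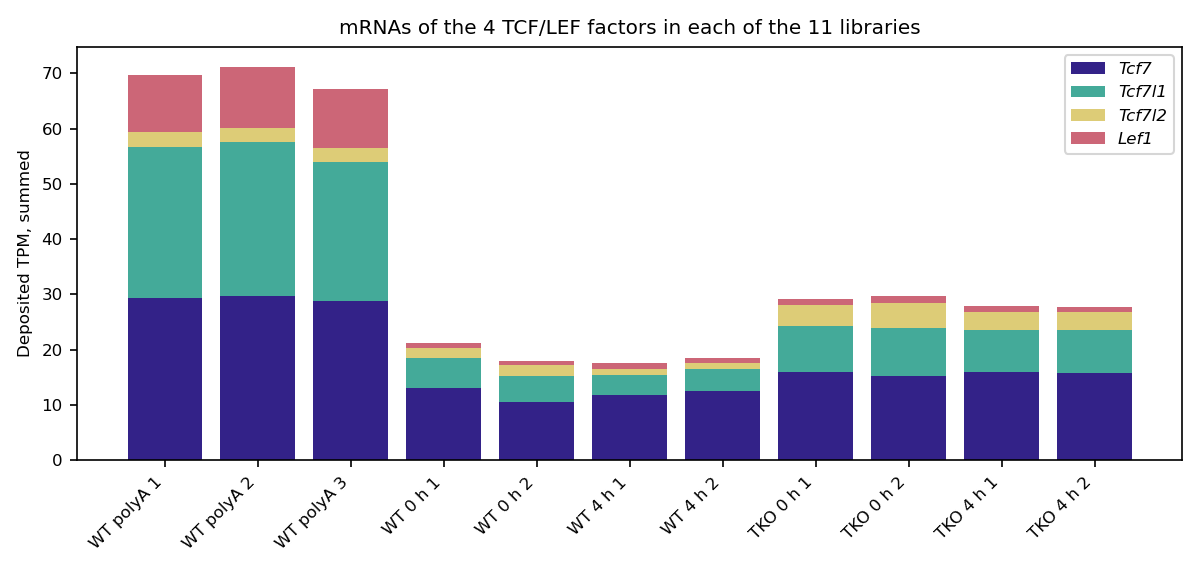
Deposited TPM (y axis, starting at 0) of the 4 TCF/LEF mRNAs, stacked for each of the 11 libraries (x axis). The sum is 67.1 to 71.2 in the polyA libraries, 17.5 to 21.2 in the ribodepleted WT libraries and 27.7 to 29.7 in the TKO libraries.

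Tcf7l1 is known to repress Nanog, Esrrb, Klf2 and Tfcp2l1, all regulators of naive pluripotency. At 0 h 2 of these 4 passed, both as lower in TKO cells. Of all 12467 tested genes 56.1% passed in either direction, and 3529 passed as lower. Of the 4, 1 was called as lower, against 5.45% of all tested genes. With 4 genes these shares are too coarse to compare. Esrrb measured 180 and 179 scaled TPM in WT and 108 and 106 in TKO cells (log2 change -0.74, SE 0.0407, adjusted p = 2.59e-06), with no overlap. Klf2 measured 118 and 124 in WT and 97.4 and 91.3 in TKO cells (-0.35, SE 0.0979, adjusted p = 0.0137). Nanog had a change of 0.16 (adjusted p = 0.129) and Tfcp2l1 one of -0.08 (adjusted p = 0.153). At 4 h Esrrb (-0.77, adjusted p = 2e-06) and Tfcp2l1 (-0.15, adjusted p = 0.0163) were lower in TKO cells, and Klf2 was not past the threshold (-0.16, adjusted p = 0.181). Whether these values depend on Tcf7l1 was not tested.

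Upstream and around the 10 genes, mRNAs of Wnt ligands, receptors and secreted antagonists included called genes in untreated cells, and no component of the cytoplasmic relay was called there. Of the 14 tested relay genes 6 passed at 0 h, 3 higher and 3 lower in TKO cells, against 56.1% of all tested genes. Among the lower was the relay kinase gene Csnk1a1, with means of 404 in WT and 295 in TKO cells (log2 change -0.45, adjusted p = 4.02e-05). At 4 h Csnk1a1 was called lower in TKO cells (means of 453 in WT and 301 in TKO cells, log2 change -0.59, adjusted p = 9.36e-06). Its differences at the 2 times were not shown to differ (interaction -0.13, adjusted p = 0.668). Of 94 other Wnt pathway genes 61 were tested, and at 0 h 14 were called higher, against 10.4% of all tested genes, and 3 lower, against 5.45%. The median log2 change of the 61 was 0.13. Of the 14 higher genes, 4 averaged under 1 scaled TPM in WT cells and so reached the filter through the TKO libraries, which bears on the count. By list, 6 of 10 tested ligand and secretion genes, 4 of 14 receptors and 5 of 6 antagonists were called, against 15.9% of all tested genes. The 4 genes under the filter value in WT cells were the ligands Wnt9a, Wnt7a and Wnt3 and the receptor Fzd1. They bear on the ligand and receptor counts. Kremen1, a receptor, was counted with the secreted antagonists. Called too were 2 of 10 nuclear cofactors, but none of 14 relay components and none of 7 other targets. Of these 7 targets 5 passed at 0 h, 3 higher and 2 lower in TKO cells, against 56.1% of all tested genes. At 4 h 6 of them passed, against 59.4%, and 1, T, was called as lower.

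Among ligands and their secretion machinery, Wnt9a rose from 0.501 and 0.820 to 3.34 and 3.84 scaled TPM (log2 change 1.47, adjusted p = 2.73e-05) and Wnt7a from 0.240 and 0.374 to 1.95 and 2.34 (1.27, adjusted p = 4.31e-05). Wls, the carrier that brings Wnt proteins to the cell surface, rose from 5.11 and 7.21 to 16.7 and 16.5 (1.31, adjusted p = 4.06e-05). Porcn, the acyltransferase that lipidates Wnt proteins, fell from 29.3 and 25.7 to 15.1 and 13.2 (-0.91, adjusted p = 2.96e-05). The ligands moved in both directions, since Wnt7b, named here after its values were seen, passed as lower (means of 11.3 in WT and 8.13 in TKO cells, log2 change -0.43, adjusted p = 0.000844). Wnt9a and Wnt7a averaged 0.661 and 0.307 in WT cells, and were tested because of their level in TKO cells. The Frizzled receptors Fzd1 (1.28), Fzd6 (1.14) and Fzd2 (1.11) rose with adjusted p of 2.39e-05 or less, Fzd6 from 4.42 and 5.30 to 11.5 and 12.2, while Fzd1 averaged 0.485 in WT cells and was tested because of its level in TKO cells. The more abundant Fzd5 and Fzd7, also named after their values were seen, fell from means of 56.5 to 44.5 (-0.34, adjusted p = 0.0117) and from 52.6 to 46.4 (-0.18, adjusted p = 0.0462).

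The antagonists moved in both directions. Sfrp1, a secreted Frizzled-related protein that binds Wnt ligands, rose from 35.3 and 34.5 to 82.1 and 82.5 scaled TPM (log2 change 1.21, adjusted p = 3.85e-07). Sfrp2 (1.03) and Kremen1, a receptor for Dkk proteins (0.59), rose too. Notum, which removes the lipid from Wnt proteins and is itself a feedback target, fell from 28.4 and 27.5 to 11.2 and 12.1 (-1.19, adjusted p = 2.56e-06), and Sfrp4 fell (-0.93). Bcl9l, a cofactor that binds β-catenin, rose by 0.94. At 4 h Wnt9a (1.40) and Fzd6 (1.36) had the largest rises and Notum (-1.33) and Porcn (-1.03) the largest falls of the 61 genes. In WT cells Myc fell after α-amanitin, from 35.0 and 33.9 to 21.3 and 22.3 (-0.64, adjusted p = 0.0022). It was the only called gene of the 61 (1.64%, against 2.10% of all tested genes). In TKO cells 0 of the 61 passed, against 0.265% of all tested genes. Of the 61, 9 had an unadjusted p under 0.05, against 3113 of all 12467 tested genes. By limma voom 3 of the 61 passed, against 738 of the 12467.

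Among fibroblast markers the summed level was higher in TKO libraries, while few single markers passed. Col1a1, Col1a2, Col3a1, Postn, Lum and Dcn summed to 7.17 to 9.42 deposited TPM in the ribodepleted WT libraries and to 11.6 to 13.0 in the TKO libraries. Of the 6, 3 were tested and 1 passed as higher in TKO cells at 0 h. At 4 h 1 passed as higher and 1 as lower. Lum was at 0 in both WT libraries at 0 h. Primitive endoderm markers summed to 4.26 to 6.59 in all ribodepleted libraries. The part of either list in the differences of the Wnt genes was not tested.

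**Figure D4:**
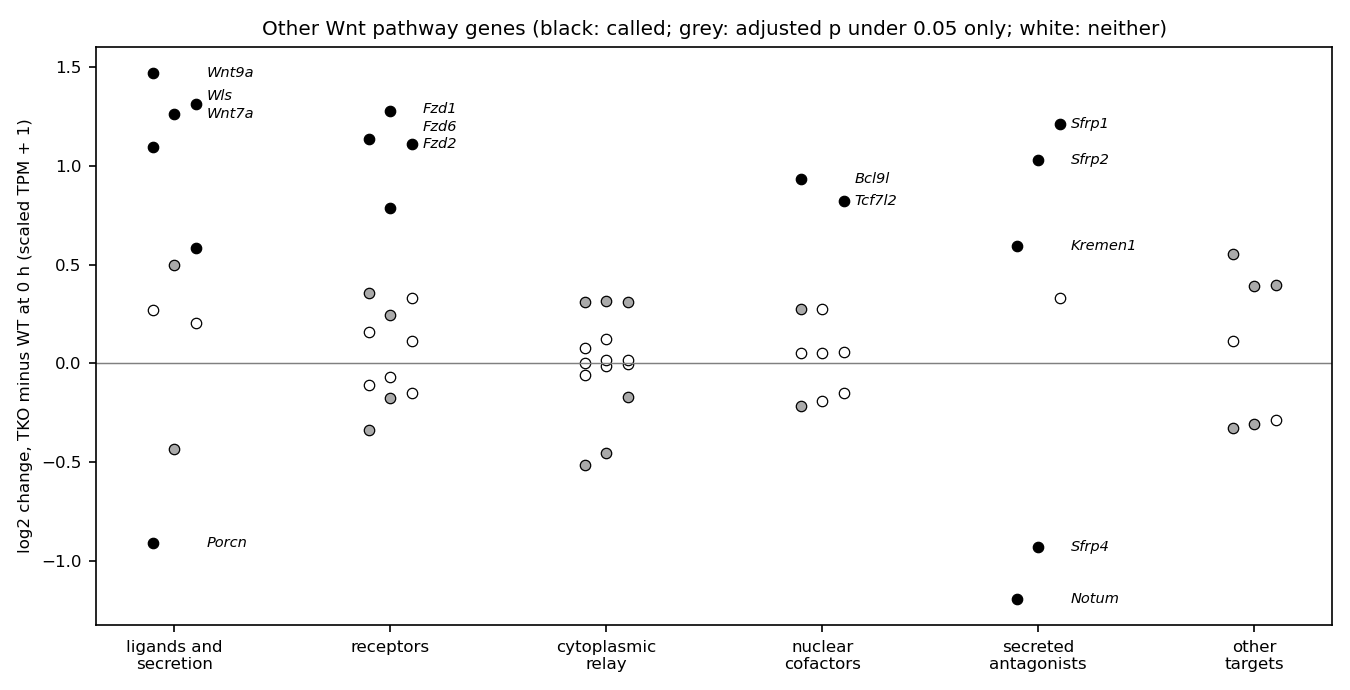
Log2 change between TKO and WT cells at 0 h on the scaled TPM + 1 scale (y axis) of the 61 tested other Wnt pathway genes, in 6 lists (x axis), with black symbols for called genes, grey for an adjusted p under 0.05 only and white for the rest. Black symbols reach 1.47 (Wnt9a) at the top and -1.19 (Notum) at the bottom, and the relay and target lists hold none.

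The 2 kinds of untreated WT library gave different levels for most of the 10 genes, foremost the TCF/LEF factors. In a separate fit of 3 polyA and 2 ribodepleted libraries, 6 of 7 tested genes passed, against 81.0% of all 12478 tested genes, and 3 were called, against 35.2%. Lef1 measured 10.0, 10.6 and 10.5 scaled TPM in polyA and 1.04 and 0.930 in ribodepleted libraries, a ratio of means of 10.5 (log2 change 2.52, SE 0.0649, adjusted p = 7.27e-09). Its ribodepleted mean of 0.986, on 31 to 35 reads, lay under the filter value of 1. Lef1 was thus tested in this fit because of its level in the polyA libraries, and the ratio rests on a low denominator. Tcf7l1 measured 26.5, 26.8 and 24.6 against 5.65 and 5.11 (2.08, SE 0.0602, adjusted p = 1.39e-08). Tcf7 measured 28.5, 28.4 and 28.4 against 13.3 and 11.1 (1.16, SE 0.0679, adjusted p = 7.1e-07). The order of the factors differed accordingly, with Lef1 above Axin2 in the polyA libraries and below Sp5 in the ribodepleted ones.

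Axin2 (0.50, adjusted p = 0.000155) was also higher in the polyA libraries, and Ctnnb1 (-0.53, adjusted p = 2.45e-06) and Sp5 (-0.45, adjusted p = 0.00157) were lower. Ctnnb1 averaged 387 in polyA and 557 in ribodepleted libraries in this fit. Cdx1 averaged 3.33 and 3.19 (0.05, interval -0.14 to 0.24, adjusted p = 0.592). Nkd1 averaged 0.949 and 0.436, and passed when the filter was lifted (0.44, adjusted p = 0.000571), while Dkk1 and Rnf43 did not. Of the other Wnt pathway genes, 57 were tested in this fit and 14 were called (24.6%, against 35.2% of all tested genes). Bcl9 (1.69) and Dvl3 (1.34), a relay protein of the Dishevelled family, stood furthest up in the polyA libraries. Wnt7b (-1.88) and Wls (-1.19) stood furthest down. The libraries differed in RNA selection, and the labels describe their sequencing separately. Whether they shared cultures is not stated, so these sources of difference cannot be told apart.

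**Figure D5:**
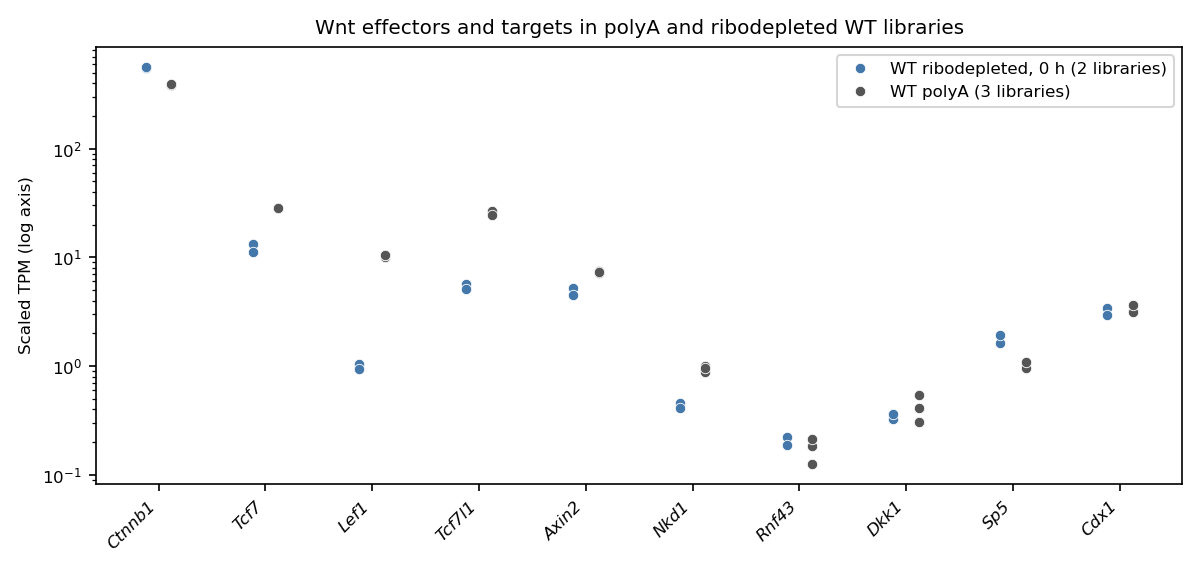
Scaled TPM (y axis, log scale) of the 10 Wnt genes (x axis) in 3 polyA and 2 ribodepleted libraries of untreated WT cells, with 1 point per library. Lef1 lies near 10 in the polyA libraries and near 1 in the ribodepleted libraries, and the points of Cdx1, Dkk1 and Rnf43 overlap.

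The genes most like the 2 genes with the largest genotype change at 0 h were listed over the 8 ribodepleted libraries, by the root-mean-square difference of their centred log2 levels. For Cdx1 these were 1700097N02Rik (0.0816), Myo1g (0.100) and Acap1 (0.114), whose own log2 changes between genotypes at 0 h were -1.38, -1.20 and -1.36. For Tcf7l1 they were Atg16l2 (0.0391), Map3k3 (0.0517) and Igsf9 (0.0529), with changes of 0.62, 0.60 and 0.62. These are likenesses of pattern alone.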

How the data were processed

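The 11 deposited files hold TPM values per gene. According to the methods of the study, the authors removed low-complexity, rRNA and tRNA reads (AfterQC, Bowtie2), trimmed adapters (Trimmomatic), aligned to mm9 with STAR and RefSeq genes, counted with HTSeq and converted the counts to TPM. Neither tool versions nor how strand was treated in counting are given in the sources used here, so values of overlapping genes are uncertain. Groups and replicate numbers came from the sample titles. Reads recovered from the TPM steps (100% of 19869 genes above 0 came out whole within 0.01 reads) served for depth, for comparing replicates, and for an alternative test. No replicate pair agreed within sampling noise.

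Each library's TPM was scaled by a median-of-ratios size factor. R 4.3.3 and limma 3.58.1 were then used to model log2(scaled TPM + 1) (eBayes with trend, two-sided), for genes with a mean above 1, without a replicate block. The 8 ribodepleted libraries formed a fit of 4 groups and the WT polyA and 0 h libraries another. The fit was tested on simulated data. DESeq2, used by the authors on counts, was not run because the deposited values are TPM. The 10 genes and all lists were chosen with earlier results of these data known. Named among the 94 other Wnt genes were, per list at 0 h, up to 3 called genes in each direction without overlap, and up to 2 per direction in other comparisons. Gene coordinates are from the NCBIM37 annotation. Chromosome positions and promoter sequence of Cdx1 are not reported here. Alternatives covered the scaling, pseudocount, filter, block, fold limit, variance trend, limma voom on recovered reads and leaving out each library.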

Additional observations from a re-analysis of the deposited data

How the results depend on the processing

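Of 666 recomputed log2 changes of the 7 tested genes, 610 kept their direction and their side of the threshold, 14 lost and 20 gained a pass, and 22 turned sign. The genotype differences of Cdx1 and Tcf7l1 passed under every alternative in which the gene was tested, Cdx1 with -2.39 to -0.52 at 0 h and -2.14 to -0.59 at 4 h (16 alternatives), and Tcf7l1 with 0.35 to 0.63 and 0.45 to 0.85 (17 alternatives). A mean above 5 removes Cdx1 from the test by construction. The other causes were not tested.

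The count called between genotypes at 0 h was 2 with the deposited TPM, pseudocount 0.1 or limma voom, 0 with pseudocount 5 or a mean above 5, and 3 without the fold limit, and leaving out single libraries gave 1 to 2, with 2 without WT_0h replicate 1. At 4 h it was 1 with pseudocount 5 or a mean above 5, and after quantile normalisation it was 2 with both lower, since Tcf7l1 was not called there. For WT 4 h against 0 h it was 1 with the deposited TPM, pseudocount 0.1 or limma voom, and 2 without the fold limit, and leaving out single libraries gave 0 to 1, with 1 without WT_0h replicate 2. For polyA against ribodepleted libraries it was 6 without the fold limit. Of the other Wnt genes, 8 were called with pseudocount 5 or a mean above 5, and 36 without the fold limit.

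Signs turned as follows. Lef1 gave -0.0446 at 0 h and -0.17 at 4 h after quantile normalisation, and -0.0162 for WT 4 h against 0 h with the deposited TPM. Ctnnb1 at 4 h gave 0.0768 with the deposited TPM and 0.0389 after quantile normalisation. The interaction of Cdx1 gave 0.0549 with the deposited TPM, 0.17 with pseudocount 0.1 and 0.25 with limma voom. Leaving out single libraries gave ranges across 0 for Ctnnb1 at 0 h (-0.0197 to 0.0212), for Lef1 (-0.0427 to 0.0692) and Axin2 (-0.0286 to 0.41) between genotypes at 4 h, for Lef1 (-0.0687 to 0.0167) and Tcf7l1 (-0.11 to 0.0046) over time in TKO cells, for the interactions of Tcf7 (-0.20 to 0.0388), Sp5 (-0.30 to 0.0032) and Cdx1 (-0.21 to 0.13), and for Cdx1 between polyA and ribodepleted libraries (-0.0407 to 0.13).

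The replicate numbers are shared by the groups but nothing in the labels pairs them, and deviations of same-numbered libraries correlated between -0.04 and 0.12. With the replicate block the genotype counts called were 1 at 0 h, 2 at 4 h and 17 of the other Wnt genes, and no call changed.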
